A study of Mus musculus with 10 samples.

Results

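The genes described here encode 7 proteins that shorten the life of messenger RNAs: Zfp36, Zfp36l1 and Zfp36l2, which bind AU-rich elements, the Regnases Zc3h12a and Zc3h12d, and the Roquins Rc3h1 and Rc3h2. They were chosen by name for their known function, and they are 7 of the 10419 genes to which a promoter peak of RNA polymerase II was assigned in any library. Polymerase II was mapped by chromatin immunoprecipitation and sequencing (ChIP-seq, antibody 8WG16, ab817) in primary mouse Th1 cells of the Balb/c DO11.10 strain, which carries a transgenic T cell receptor. All groups were primed with anti-CD3 and anti-CD28 under Th1 conditions, expanded in an interleukin 2 analogue and then kept for a day without it. The 6 polymerase libraries fall into 3 groups of 2: cells that were not restimulated (NR), and cells restimulated with plate-bound anti-CD3 (5 µg/ml) and soluble anti-CD28 (2.5 µg/ml) for 30 min or for 2 h. The labels number the libraries of a group as replicates and do not state that each had its own animal or culture. The p-values therefore reflect library-to-library spread alone, and that spread could be technical.

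The ZFP36 proteins (tristetraprolin, encoded by Zfp36, and its relatives) bind AU-rich stretches in the untranslated regions of cytokine and growth regulator mRNAs and recruit the CCR4-NOT deadenylase complex. Regnases are endonucleases that cut mRNAs at stem-loops, and Roquins bind related stem-loops and recruit deadenylation and decapping factors. In T cells these proteins limit cytokine output and activation, and the paracaspase encoded by Malt1 cleaves Regnase-1 (Zc3h12a) and the Roquins after antigen receptor signalling.

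In the libraries, a promoter peak was present at each of the 7 genes in all 6 libraries once peaks were taken by position. The highest mean called length in restimulated cells was at Zfp36l1 after 30 min, where it rested on the second library (11295 bp, against 4729 bp in the first, in which Zfp36 was longer). The shortest mean lengths in every group were at Rc3h1 and Rc3h2. At Zc3h12a the called DNA averaged 3911.5 bp after 30 min and 5500.5 bp after 2 h, against 1343.5 bp in NR cells. The 30 min mean rested on the second library (6207 bp), and the first (1616 bp) lay within the NR range of these summed lengths. Its peak at the start alone (1387 bp) was longer than those of both NR libraries (773 and 1180 bp). No change at any of the 7 genes passed the test in any comparison in the fit over all 6 libraries, with 2 libraries in each group.

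The upstream sequences show how the start regions of the genes differ. They hold the 250 bases before the annotated start, read on the gene's strand from RefSeq (GRCm38.p6), and 6 of the 7 genes have an entry. Capitals mark matches on either strand to patterns bound by factors that antigen receptor or growth factor signalling activates: AP-1 (TGANTCA), CRE (TGACGTCA), NF-kB (GGG, any 5 bases, then CC), Egr (GCGNGGGCG) and the CArG box of serum response factor. Zfp36, Zfp36l1, Zc3h12a and Rc3h1 are shown, 1 or more from each family, because their windows hold different patterns. Their positions are chr7:28379229-28379478, chr12:80113014-80113263 and chr4:125127882-125128131 on the minus strand for the first 3 genes and chr1:160906161-160906410 on the plus strand for Rc3h1.
Zfp36: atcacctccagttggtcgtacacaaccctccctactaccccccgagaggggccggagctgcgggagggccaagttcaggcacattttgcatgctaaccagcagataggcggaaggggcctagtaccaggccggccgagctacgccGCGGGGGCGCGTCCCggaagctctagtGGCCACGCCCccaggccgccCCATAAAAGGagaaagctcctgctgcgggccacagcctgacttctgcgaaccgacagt
Zfp36l1: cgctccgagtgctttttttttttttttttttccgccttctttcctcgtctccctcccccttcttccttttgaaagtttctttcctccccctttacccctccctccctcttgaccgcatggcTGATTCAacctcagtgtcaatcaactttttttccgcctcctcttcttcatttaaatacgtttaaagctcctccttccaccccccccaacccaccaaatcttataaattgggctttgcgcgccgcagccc
Zc3h12a: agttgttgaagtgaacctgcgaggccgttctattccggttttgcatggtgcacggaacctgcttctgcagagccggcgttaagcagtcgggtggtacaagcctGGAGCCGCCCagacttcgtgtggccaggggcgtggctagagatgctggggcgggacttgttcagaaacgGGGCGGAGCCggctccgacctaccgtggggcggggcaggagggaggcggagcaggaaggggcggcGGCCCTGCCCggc
Rc3h1: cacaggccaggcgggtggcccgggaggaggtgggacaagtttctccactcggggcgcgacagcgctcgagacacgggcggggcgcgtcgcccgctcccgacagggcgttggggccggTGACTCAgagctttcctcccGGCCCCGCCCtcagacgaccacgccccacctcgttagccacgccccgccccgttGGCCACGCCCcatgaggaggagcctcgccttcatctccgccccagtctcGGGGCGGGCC

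Zfp36 held a CArG box 58 to 49 bases before the start and an Egr match 105 to 97 bases before it. Searched over 300 bases (these 250 and the 50 after the start), the CArG box occurs in 1.64% of 32544 windows and the Egr pattern in 5.6%. An AP-1 match, found in 7.79% of the windows, stood 129 to 123 bases before the start of Zfp36l1 and 133 to 127 bases before that of Rc3h1. Zc3h12a and Rc3h1 held 3 NF-kB matches each. That pattern is loose: it occurs in 51.0% of windows, and 2 of the 3 matches at Zfp36 overlap the Egr match. Zc3h12d held 1 NF-kB match, and Rc3h2 held 3 that overlap each other. No CRE (1.8% of windows) was in any of the 6 windows. The short NFAT core GGAAA (61.5% of windows) occurred 4 times at Zfp36l1 and once each at Rc3h1 and Rc3h2, and is not capitalised. A match describes letters only and does not show binding.

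The peaks were called in each library separately and the lists hold no read counts, so sequencing depth is unknown. The libraries differed in ways the groups do not explain: median pileup at a promoter peak, which is coverage at its summit, lay between 18.0 and 122.0, and median promoter peak width between 692.0 and 1229.0 bp. The second 30 min library had the highest median pileup and the most summits, 23299 against 15330 in the first. Pileups had been scaled in replicate 2 libraries, so these medians are not on the same scale in all libraries. Promoter peaks of all 6 T cell markers, such as Cd3e, Cd4 and Lck, were called in every library, and of 4 or 5 of 5 Th1 markers, Tbx21 and Ifng among them. The B cell genes Ms4a1 and Pax5, the macrophage genes Csf1r, Adgre1 and Lyz2, the CD8 gene Cd8a and Foxp3 had no promoter peak in any library. From the macrophage list only Cd68 had a peak, and its called length ranged between 3605 and 11151 bp after 30 min and between 2574 and 10282 bp after 2 h, against 627 to 1069 bp in NR cells. The B cell gene Cd79a had one in every library, with 3424 to 7209 bp after 30 min and 3372 to 7013 bp after 2 h, against 2977 to 4238 bp in NR cells. A peak was called at 1 or both of the Th2 genes Gata3 and Il4 in every library, with a summed length of 410 to 7691 bp after 30 min and 5320 to 5391 bp after 2 h, against 786 to 3176 bp in NR cells. A peak was called at Cd8b1 in the second library of each group. The part of these in the results at the 7 genes was not tested.

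The value compared between libraries is the called length, the number of base pairs called as promoter peak at a gene. It was taken in a pair of ways: as the deposited tables assign peaks to genes, and by position, as the full width of every promoter peak that overlaps the gene's RefSeq span with 1000 bp on either side. Fold changes are on the scale log2(bp + 100), after each library was centred on its median. For assigned length this removed shifts of 0.16 after 30 min and 0.48 after 2 h relative to NR and of 0.32 between 2 h and 30 min. Lengths by position were centred in the same way, with shifts of their own. Fold changes understate the change of genes with little called DNA, and adjusted p-values are from limma with Benjamini-Hochberg adjustment over all genes. Called length rises both with the amount of polymerase over a region and with the depth of a library, and in bulk chromatin more cells with polymerase at a gene and more polymerase per cell cannot be told apart. A site called as a separate peak away from any start is not in the promoter lists and adds no length. It counts once a wider promoter peak covers it.

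Over all genes, 0.242% of the 9908 genes tested by assigned length passed the test after 30 min, 0.434% after 2 h and 0.0% between 2 h and 30 min. By position, 0.315%, 0.407% and 0.0% of 10809 genes passed in the same 3 comparisons. None of the 7 members passed in any of the 6 tests, which is close to such a background. Where the count over all genes was 0, between 2 h and 30 min, 513 genes by assignment and 560 by position had an unadjusted p under 0.05 in limma. The counts rested on single libraries: by assignment, the 24 genes of the 30 min comparison became 227 without the second 30 min library and 4 without the first NR library, and the 43 genes of the 2 h comparison became 186 and 4 in the same 2 fits.

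**Figure D1:**
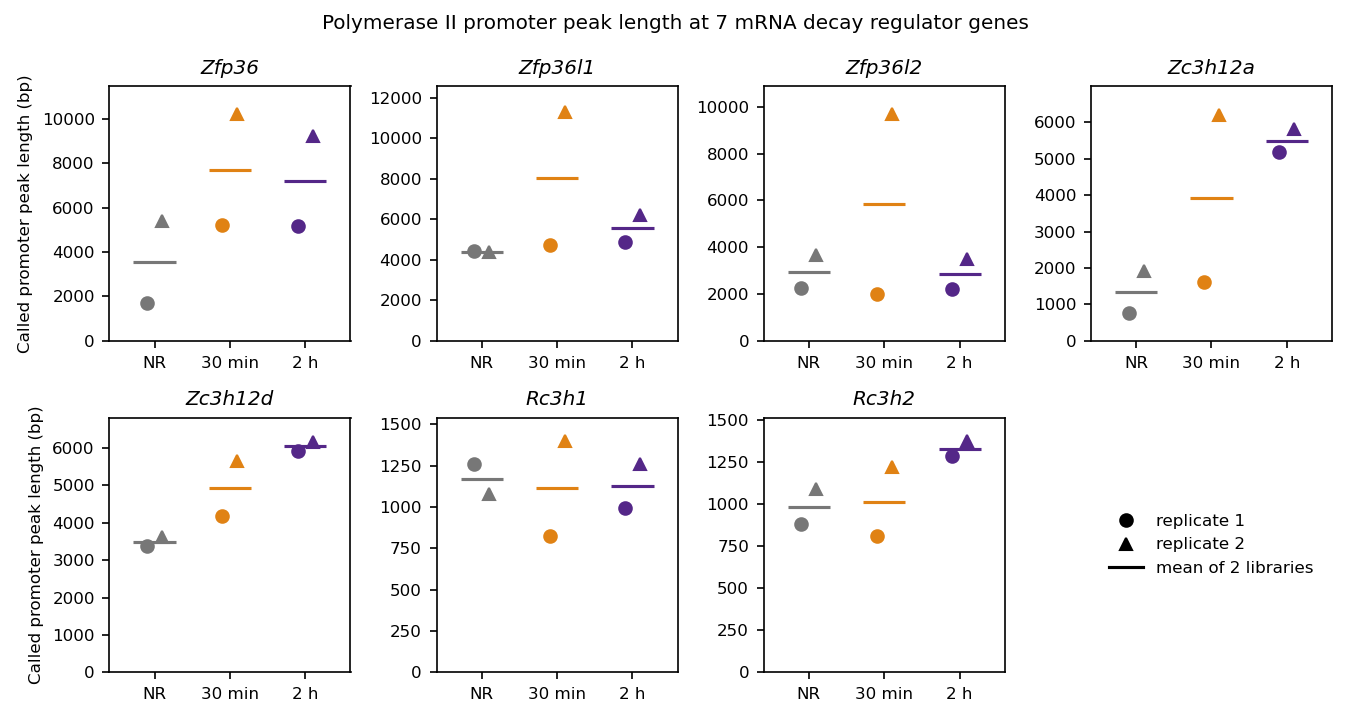
Called promoter peak length in bp (y axis, from 0, a scale per gene) by position at the 7 genes in NR, 30 min and 2 h libraries (x axis). Circles are replicate 1, triangles replicate 2 and lines the mean of the 2 libraries; at Zc3h12a both 2 h libraries (5182 and 5819 bp) lie above both NR libraries (773 and 1914 bp), and at Zfp36l2 the second 30 min library (9693 bp) stands above the other 5.

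Zfp36 is a short gene of 2445 bp at chr7:28376784-28379228 on the minus strand, and it encodes tristetraprolin, an immediate early gene product in many cell types. By position it had 1708 and 5412 bp of called DNA in NR cells, 5217 and 10202 bp after 30 min and 5177 and 9209 bp after 2 h. The first NR library was the low one, and the groups overlapped in bp because the second NR library exceeded the first 30 min and the first 2 h library. The peak covered 55.7% of the gene in the first NR library and the whole gene in the other 5. After centring, both 30 min libraries lay above both NR libraries, with a log2 change by position of 1.06 ± 0.45 (SE, limma, adjusted p = 0.625). The value was 0.65 ± 0.45 for 2 h against NR (adjusted p = 0.568) and -0.41 ± 0.45 for 2 h against 30 min (adjusted p = 0.862). These values rested on the NR libraries: for 30 min against NR the value by position was 0.43 without the first and 1.69 without the second, and for 2 h against NR it was 0.02 and 1.29.

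The value by assignment at Zfp36 went the other way after 30 min. In the second 30 min library a single peak of 10202 bp ran over Zfp36 and past the start of Plekhg2, which lies 7843 bp from that of Zfp36, and the deposited table gives it to Plekhg2. In the other 5 libraries Plekhg2 had a peak of its own of 1680 to 2517 bp, so the 10202 bp counted for Zfp36 by position take in the start region of a neighbour. When only the part of a peak over the gene and its flanks was counted, the log2 change at Zfp36 for 30 min against NR was 0.49, against 1.06 by full width. Zfp36 is therefore listed with 5217 and 0 bp after 30 min, against 1708 and 5412 bp in NR cells. The log2 change by assignment was -2.27 ± 2.03 (adjusted p = 0.787), and without the second 30 min library it was 0.98. Its direction at Zfp36 depends on that 1 assignment, and neither value passed the test.

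In the promoter lists Zfp36 stood near the top in fold enrichment, the authors' ratio of each peak to local background. It ranked at percentile 99.3 and 98.6 in NR cells, 99.7 and 98.8 after 30 min and 99.2 and 97.4 after 2 h. The place in the list was thus high with and without restimulation. Its summit lay between 24 bp before and 15 bp after the start in all libraries. In the first NR library a separate summit stood 2.77 kb from the start, just past the end of the gene, and in the other 5 libraries the wider promoter peak covered that site.

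Zfp36l1 (chr12:80107760-80113013, minus strand, 5254 bp) encodes a second AU-rich element binding protein of the family. It had 4453 and 4367 bp of called DNA in NR cells, 4729 and 11295 bp after 30 min and 4885 and 6206 bp after 2 h. All 4 restimulated libraries lay above both NR libraries in bp. The second 30 min library stood apart, with a peak over 100% of the gene, against 16.2 to 39.7% in the other 5. The centred log2 change by assigned length was 0.56 ± 0.25 for 30 min against NR (adjusted p = 0.676) and -0.16 ± 0.25 for 2 h against NR (adjusted p = 0.803). It was -0.72 ± 0.25 for 2 h against 30 min (adjusted p = 0.863). Without centring the 2 h value was 0.31, so its sign at Zfp36l1 depends on the scaling. After quantile normalisation the value for 30 min against NR was -0.0, so the 30 min value depends on the scaling too.

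Zfp36l1 had the highest fold enrichment ranks of the 7 genes. It stood at percentile 99.4 and 99.8 in NR cells, 99.9 and 99.8 after 30 min and 99.8 and 99.5 after 2 h. Much of the NR peak lay upstream of the start, as the map of peak extents shows. Summits about 5.74 kb from the start, past the gene's end, were called in 4 libraries, and the wide peak of the second 30 min library covered that site.

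Zfp36l2 (chr17:84183924-84187947, minus strand, 4024 bp) encodes the third AU-rich element binder of the family, which is abundant in lymphocytes. It had 2244 and 3665 bp in NR cells, 2008 and 9693 bp after 30 min and 2202 and 3486 bp after 2 h. Both extremes came from the 30 min group, and the 2 h values lay inside the NR range or just under it. The log2 change was 0.45 ± 0.48 for 30 min against NR (adjusted p = 0.819). It was -0.53 ± 0.48 for 2 h against NR (adjusted p = 0.669) and -0.98 ± 0.48 for 2 h against 30 min (adjusted p = 0.866). Without centring the value for 2 h against NR was -0.05, so its size depends on the scaling. Without the second 30 min library the value against NR at 30 min was -0.26, and that for 2 h against 30 min was -0.26 without the second 30 min library and -1.69 without the first. After quantile normalisation the value for 30 min against NR was -0.0. The fold enrichment percentile was 98.0 and 99.4 in NR cells, 94.9 and 97.8 after 30 min and 87.5 and 92.6 after 2 h, so both 2 h libraries ranked it below every other library. Ranks come from lists of unequal length and do not show a change in occupancy, and the share of all genes with such an order was not counted.

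**Figure D2:**
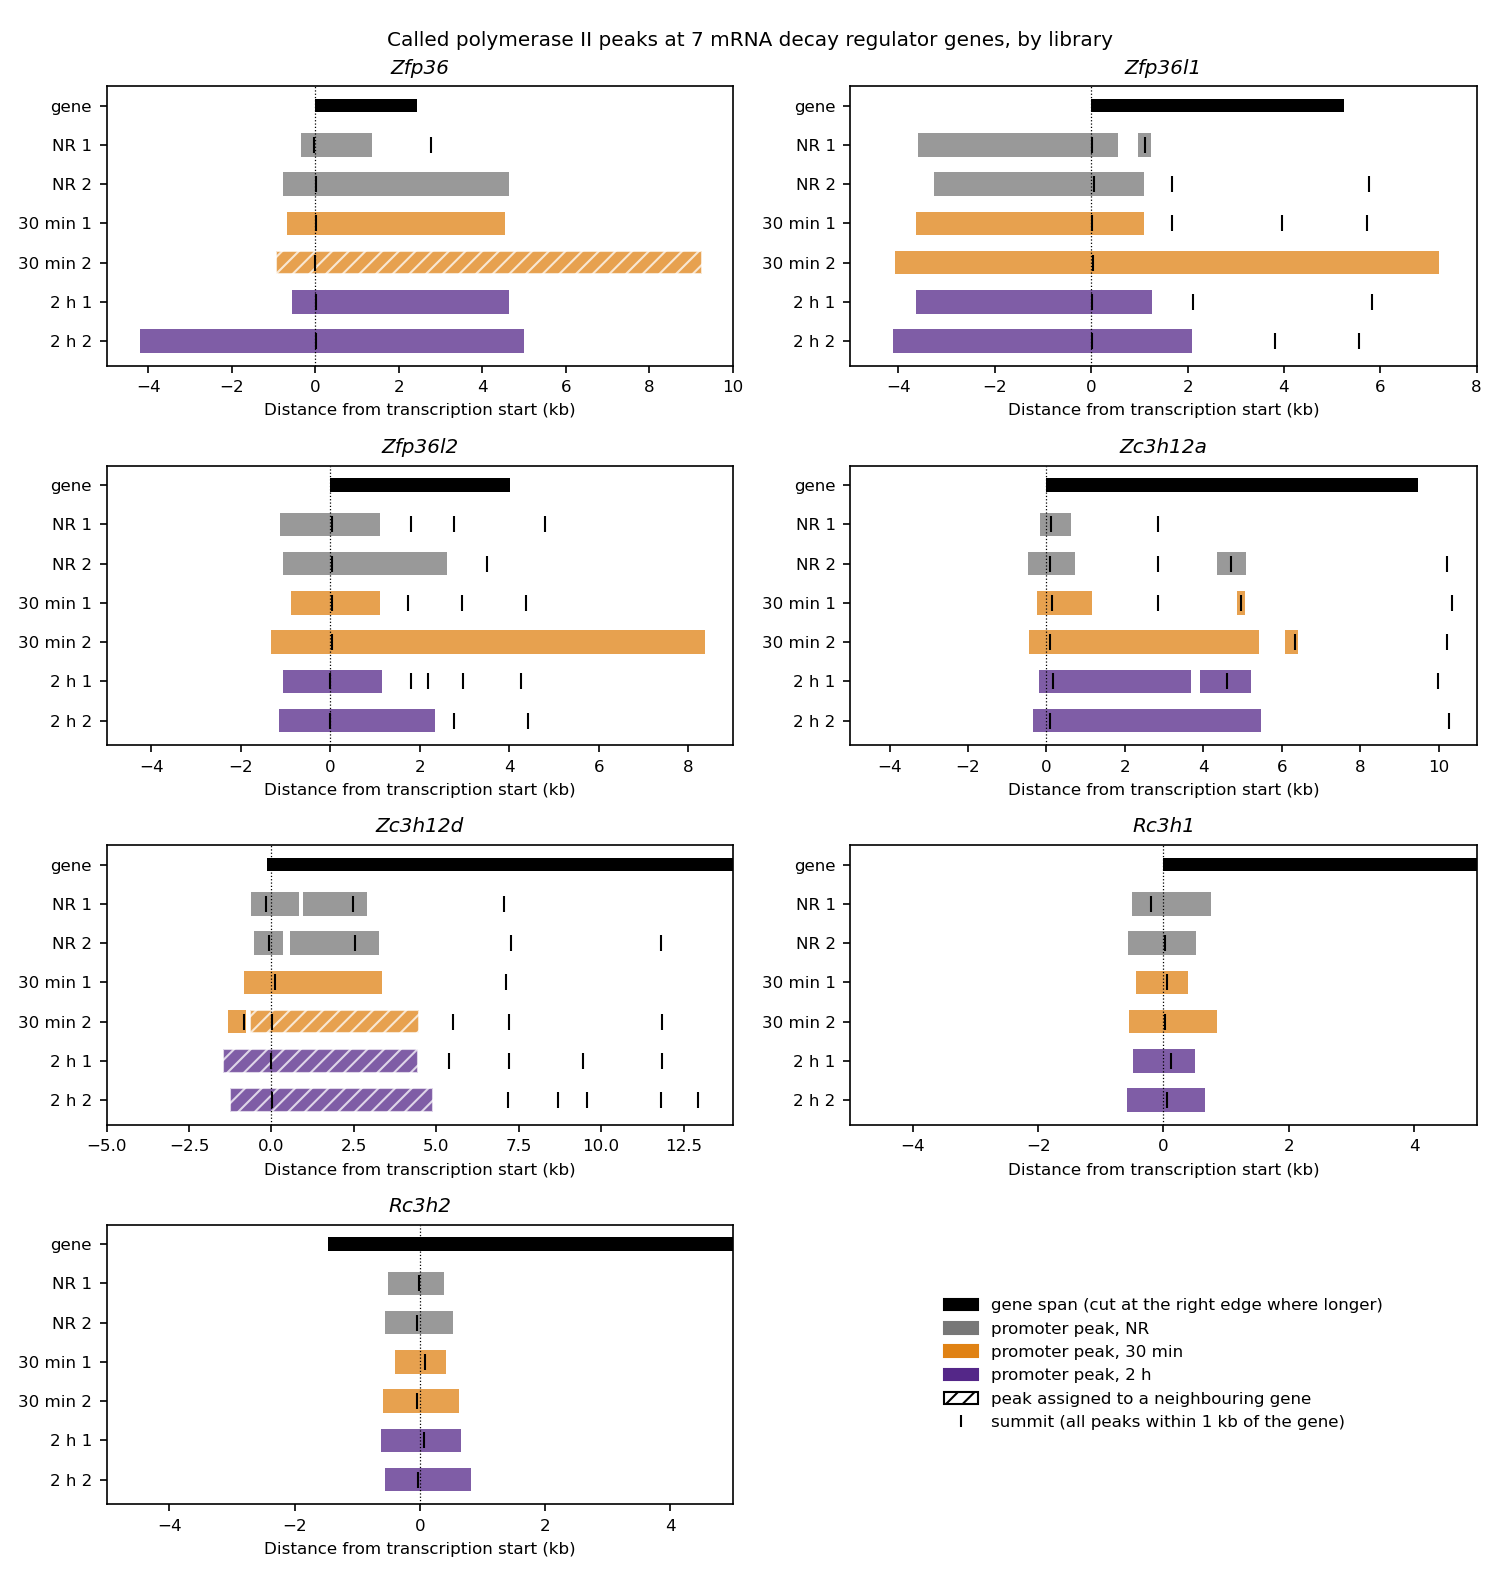
Called peaks at the 7 genes in each library, with distance from the transcription start in kb on the x axis and libraries down the page (gene, then NR, 30 min and 2 h, 2 libraries each). Bars are promoter peaks, hatched where the deposited table assigns them to a neighbouring gene, black ticks are summits, and at Zc3h12a the peak of both 2 h libraries and the second 30 min library reaches past 3 kb while NR peaks at the start end within 1 kb.

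Zc3h12a (chr4:125118414-125127881, minus strand, 9468 bp) encodes Regnase-1, the endonuclease that degrades mRNAs of cytokines and activation genes in resting T cells. It had 773 and 1914 bp of called DNA in NR cells, 1616 and 6207 bp after 30 min and 5182 and 5819 bp after 2 h. Both 2 h libraries lay above both NR libraries, and the first 30 min library fell within the NR range. In some libraries these lengths add a further promoter peak inside the gene, of 734 bp in the second NR and 229 bp in the first 30 min library. The peak at the start alone had 773 and 1180 bp in NR cells, 1387 and 5886 bp after 30 min and 3889 and 5819 bp after 2 h. By that peak the first 30 min library lay above both NR libraries. The promoter peaks covered 6.54 and 15.4% of the gene in NR cells, 14.6 and 60.7% after 30 min and 52.6 and 57.9% after 2 h. The second 30 min library was close to the 2 h libraries in this and the first was close to NR.

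The centred log2 change at Zc3h12a was 1.60 ± 0.44 for 2 h against NR (limma, adjusted p = 0.281). It was 1.15 ± 0.44 for 30 min against NR (adjusted p = 0.615) and 0.45 ± 0.44 for 2 h against 30 min (adjusted p = 0.866). The 2 h change was the largest positive one among the 7 members by either measure in the comparisons with NR. Over the 17 alternatives its adjusted p ranged between 0.0999 and 0.889, so none passed. Between libraries of the same replicate number, the centred difference by position was 2.05 and 1.11 for 2 h against NR, and 1.04 and 1.24 for 30 min against NR. Both pairs thus went the same way at Zc3h12a, with a larger spread between the pairs at 2 h.

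Zc3h12a also had called sites away from its start. A summit 2.83 kb from the start, with positions no more than 3 bp apart in the 3 libraries, was called in both NR libraries and the first 30 min library. In the second 30 min library and both 2 h libraries the widened promoter peak covered it. As a separate peak it was not in the promoter lists, so its DNA was left out of the called length. In the 3 libraries with the widened peak it was counted. How much of the length change at Zc3h12a comes from such merging was not tested. A further site 10.2 kb from the start, past the end of the gene, had a summit in 5 libraries, all but the first NR library. A peak has 1 summit in these lists, so the summit count falls where peaks merge: the gene held 2 and 3 summits in NR cells, 3 and 2 after 30 min and 2 and 1 after 2 h. Its fold enrichment stood at percentile 37.6 and 78.8 in NR cells, 92.9 and 88.6 after 30 min and 88.0 and 89.6 after 2 h. The first NR library was the lowest, and all 4 restimulated libraries ranked the peak higher than either NR library did. The share of all genes with such an order was not counted, and these ranks do not show a change in occupancy.

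Zc3h12d (chr10:7832323-7870397, plus strand, 38075 bp) encodes Regnase-4, a lymphocyte protein of the same nuclease family. By position it had 3378 and 3616 bp in NR cells, 4186 and 5658 bp after 30 min and 5909 and 6169 bp after 2 h. The 3 groups did not overlap in bp and followed the order of time. Called length over all genes was also longer at 2 h: in bp, the 2 h libraries lay above both NR libraries at 55.2% of all genes. After centring the log2 change by position was 0.27 ± 0.22 for 2 h against NR (limma, adjusted p = 0.616), 0.30 ± 0.22 for 30 min against NR (adjusted p = 0.729) and -0.02 ± 0.22 for 2 h against 30 min (adjusted p = 0.983).

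By assignment Zc3h12d is listed with 3378 and 3616 bp in NR cells, 4186 and 534 bp after 30 min and 0 bp in both 2 h libraries. A peak of 5909 bp in the first 2 h library and of 6169 bp in the second covers its start, and the deposited tables give both to Mir5104, a microRNA gene that starts 3911 bp downstream of the Zc3h12d start, inside it. The same holds for a peak of 5124 bp in the second 30 min library. The fitted log2 change by assignment was -5.64 ± 1.10 for 2 h against NR (adjusted p = 0.145), and because both 2 h values are 0 it depends on the pseudocount and is no bound. It passed the test without the second 30 min library (adjusted p = 0.00317), without the first (0.0105) and with only the 4 libraries compared (0.0102), in a range of 0.00317 to 0.65 over 16 alternatives. The value was -4.36 ± 1.10 for 2 h against 30 min (adjusted p = 0.614), and without the second 30 min library -6.13 (adjusted p = 0.0237, in a range of 0.0237 to 1.0). The peaks themselves were the longest of the 3 groups at 2 h.

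Inside Zc3h12d, summits reached far beyond the promoter. A summit 7.18 kb from the start was called in all 6 libraries, and another at 11.84 kb in 4, which were the second NR, the second 30 min and both 2 h libraries. A summit at 9.51 kb was called in both 2 h libraries and in no other, with a −log10 q of only 4.92 and 3.15. A summit at 2.51 kb was called in both NR libraries, and in the 4 restimulated libraries the promoter peak covered it. The gene held 2 and 4 summits in NR cells, 2 and 4 after 30 min and 5 and 6 after 2 h. The 2 h values were above all 4 others, and the test did not call this (log2 change 0.57 ± 0.34 for 2 h against NR, adjusted p = 0.713). This order rested on weak summits, those at 9.51 kb and, in the second 2 h library, another at 12.94 kb (−log10 q of 1.65). Among summits with a −log10 q of at least 5, neither 2 h library held more than the second NR library. The first NR count leaves out its start summit, which lay just outside the span. With 1000 bp on either side the counts were 3 and 4 in NR cells, 2 and 5 after 30 min and 5 and 6 after 2 h. The share of all genes with such an order of summit counts was not counted. Both 2 h lists also held more summits than every other list except that of the second 30 min library. Its fold enrichment was at percentile 64.4 and 42.1 in NR cells, 34.0 and 50.6 after 30 min and 77.7 and 59.4 after 2 h, with 2 h and NR overlapping.

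**Figure D3:**
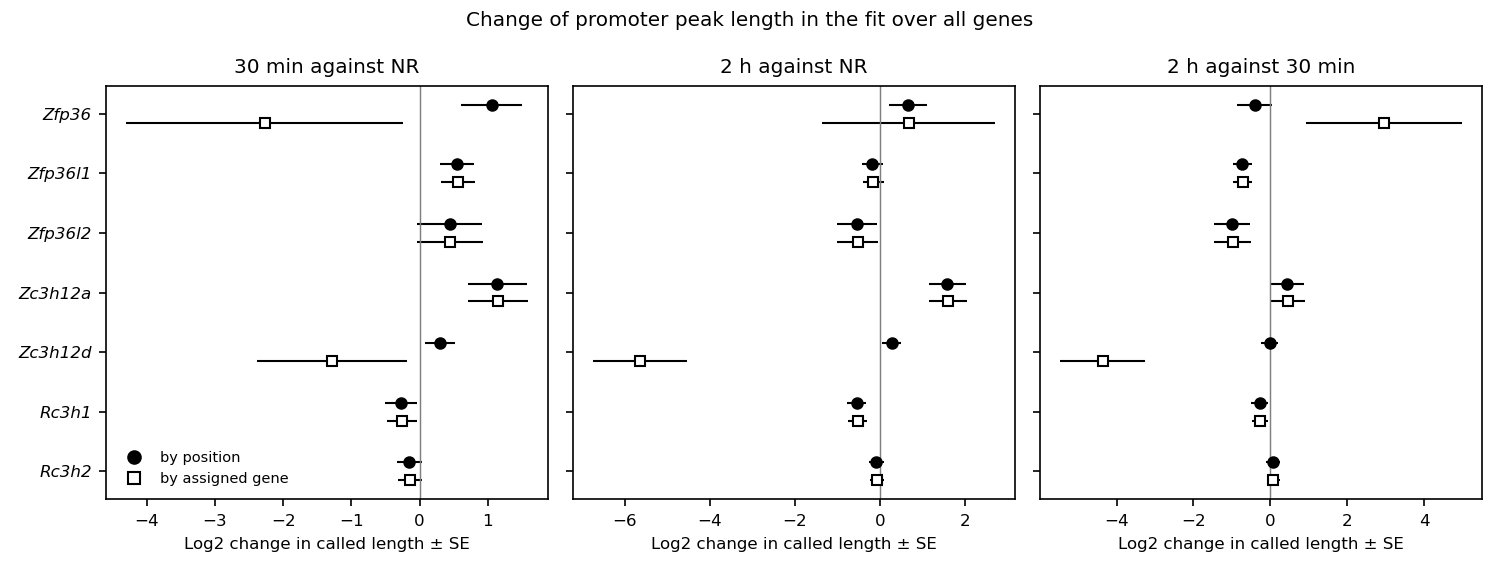
Log2 change of called promoter peak length after centring (x axis, bars are 1 SE) for the 7 genes (y axis) in the 3 comparisons. Filled circles are lengths by position and open squares lengths by assigned gene; both lie close together at 5 genes and part at Zfp36 (1.06 and -2.27 for 30 min against NR) and Zc3h12d (0.27 and -5.64 for 2 h against NR).

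Rc3h1 (chr1:160906411-160974976, plus strand, 68566 bp) encodes Roquin-1, a stem-loop binding protein. It had 1259 and 1076 bp in NR cells, 827 and 1398 bp after 30 min and 993 and 1257 bp after 2 h. The groups overlapped in every comparison in bp. The peak covered 0.57 to 1.24% of the gene. After centring both 2 h libraries lay under both NR libraries, with a log2 change of -0.53 ± 0.22 (limma, adjusted p = 0.404). Without centring this value was -0.05, so its size depends on the scaling. The change was -0.26 ± 0.22 for 30 min against NR (adjusted p = 0.777) and -0.27 ± 0.22 for 2 h against 30 min (adjusted p = 0.866). Without the first NR library the 30 min value was 0.01.

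Rc3h2 (chr2:37368861-37424370, minus strand, 55510 bp) encodes Roquin-2, which overlaps in function with Roquin-1. It had 882 and 1087 bp in NR cells, 811 and 1217 bp after 30 min and 1283 and 1373 bp after 2 h. In bp both 2 h libraries lay above all others. The centred log2 change was -0.07 ± 0.17 for 2 h against NR (adjusted p = 0.876), -0.14 ± 0.17 for 30 min against NR (adjusted p = 0.851) and 0.07 ± 0.17 for 2 h against 30 min (adjusted p = 0.95). Without centring the values against NR were 0.40 at 2 h and 0.02 at 30 min, so the sign at Rc3h2 depends on the scaling. Rc3h2 had the lowest summed length of the 7 genes in both 30 min libraries.

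Neither Roquin gene had a called summit inside its span or within 1 kb of it other than the one at the promoter. That summit lay between 207 bp before and 119 bp after the start at Rc3h1 and between 49 bp before and 87 bp after it at Rc3h2. Rc3h1 ranked in the middle of the lists, at percentile 50.7 and 65.8 in NR cells, 54.7 and 58.7 after 30 min and 48.8 and 55.8 after 2 h. Rc3h2 ranked higher, at 84.2 and 88.2 in NR cells, 72.8 and 76.4 after 30 min and 82.6 and 79.9 after 2 h. Both 30 min libraries ranked Rc3h2 below the other 4, and the share of all genes with such an order was not counted.

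**Figure D4:**
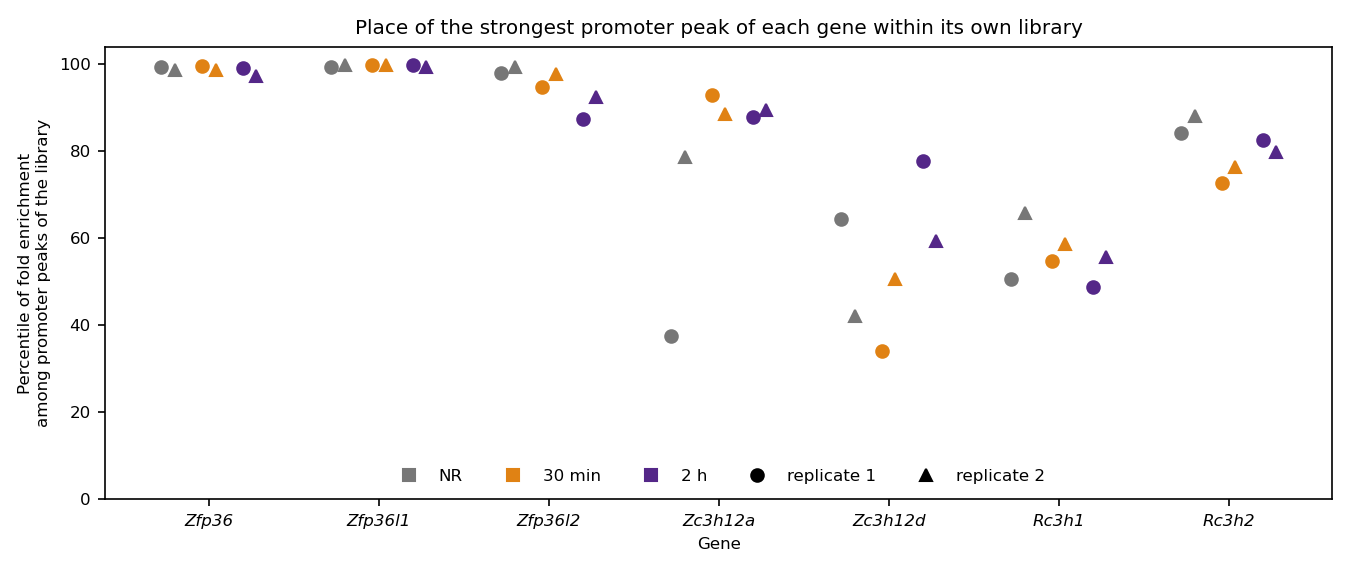
Percentile of fold enrichment of each gene's strongest promoter peak among all promoter peaks of the same library (y axis, 0 to 100) for the 7 genes (x axis), by group (colour) and replicate (shape). Zfp36 and Zfp36l1 stay above 97 in all 6 libraries, and Zc3h12a has its lowest place, 37.6, in the first NR library.

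The order of called lengths among the members differed between libraries. Zfp36l1 was longest in the first NR and the second 30 min library, Zc3h12d in the first 2 h library, and Zfp36 in the other 3. Rc3h1 and Rc3h2 were the shortest pair in 5 of the 6 libraries. The exception was the first NR library, where Zc3h12a at 773 bp was below both. In the 2 h group Zc3h12d (6039.0 ± 184.0 bp, SD, n = 2), Zc3h12a (5500.5 ± 450.0 bp) and Zfp36l1 (5545.5 ± 934.0 bp) were close. The 2 libraries of Zfp36l1 spanned those of the other two, and Zc3h12d exceeded Zc3h12a in both libraries. Rc3h2 (1328.0 ± 63.6 bp) exceeded Rc3h1 (1125.0 ± 187.0 bp) in both 2 h libraries, by little more than their spread. Wide peaks cover several sites, so a length compares genes only as called DNA and not as polymerase per gene.

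Counted over the members by position, 30 min libraries lay above both NR libraries in bp at 2 of 7 genes, Zfp36l1 and Zc3h12d, against 11.9% of all genes. At 2 h this held for 4 of 7, Zfp36l1, Zc3h12a, Zc3h12d and Rc3h2, against 55.2% of all genes, a share close to theirs. After centring, 30 min lay above NR at 3 of 7, Zfp36, Zfp36l1 and Zc3h12a, against 18.7% of all genes, and below it at none, against 19.0%. The 2 h libraries lay above both NR libraries at 2 genes, Zc3h12a and Zc3h12d (22.6% of all genes), and below them at 2, Zfp36l2 and Rc3h1 (31.4%). They lay below both 30 min libraries at 4, Zfp36, Zfp36l1, Zfp36l2 and Rc3h1 (19.9% of all genes), and above them at none (16.9%). Before centring, in bp, they lay above both 30 min libraries at 2, Zc3h12d and Rc3h2 (16.8% of all genes), and below them at none (0.564%). The 3 comparisons share libraries, and with 2 libraries against 2 no permutation can give a p under 0.333.

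Summits inside the gene spans gave no call at a member. The share of all 10109 genes tested that passed was 0.0% for 30 min against NR, 0.0692% for 2 h against NR and 0.0% for 2 h against 30 min, and the lowest adjusted p among the members was 0.855, 0.656 and 0.91 in the same comparisons (limma). At an unadjusted p under 0.05 there were 598, 799 and 465 genes.

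Genes whose centred assigned lengths followed a member most closely over the 6 libraries were picked by Euclidean distance among 9215 genes. Nearest to Zc3h12a were Enthd1 (distance 0.24) and Mob3a (0.53), against a median distance of 2.09. Nearest to Zfp36l1 were Rai1 (0.23) and Cdt1 (0.25), and nearest to Zfp36l2 were Fbxl14 (0.35) and Bin2 (0.46). Psmc3 (0.10) and Fbxw5 (0.15) were nearest to Rc3h1, and Ccdc62 (0.07) and Saal1 (0.07) to Rc3h2. Zfp36 and Zc3h12d have lengths of 0 from the assignments described above. Their nearest genes were Cyb5d1 (1.23) and Podnl1 (1.31) for Zfp36, against a median distance of 5.73, and Rpl10 (2.18) and B3galt4 (2.18) for Zc3h12d, against a median of 6.51.

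The machinery these proteins work with was counted from 5 lists, and no gene of any list passed the test in any comparison by assignment or by position. Of the CCR4-NOT and PAN deadenylase genes with their adaptors, 17 of 18 were tested by assignment, with a median log2 change of 0.0 after 30 min and -0.07 after 2 h relative to NR. The medians over all genes were -0.04 and -0.03. Btg2, an adaptor that activates deadenylation, had 2020 and 6910 bp after 30 min, against 724 and 1810 bp in NR cells (log2 change 1.46 ± 0.41, adjusted p = 0.437). Of the decapping genes, 17 of 18 were tested, with medians of -0.06 after 30 min and -0.10 after 2 h. Lsm7, a subunit of the Lsm ring that promotes decapping, had 1563 and 1470 bp after 2 h, against 521 and 706 bp in NR cells (0.71 ± 0.24, adjusted p = 0.338).

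Of other proteins that bind AU-rich elements or stem-loops, 13 of 15 were tested, with medians of 0.26 after 30 min and 0.11 after 2 h. Arid5a, which stabilises mRNAs that Regnase-1 targets, had 3810 and 9533 bp after 30 min, against 3133 and 3323 bp in NR cells (0.72 ± 0.36, adjusted p = 0.705). Of the kinases and the protease that act on these proteins, 12 of 13 were tested, with medians of 0.22 and 0.10. Malt1 had 7150 and 11449 bp after 30 min and 8051 and 11870 bp after 2 h, against 2537 and 1745 bp in NR cells. All 4 restimulated libraries lay above both NR libraries, and the log2 change was 1.89 ± 0.33 after 30 min (adjusted p = 0.153) and 1.69 ± 0.33 after 2 h (adjusted p = 0.145). It passed both tests among genes with a peak in all 6 libraries (adjusted p = 0.0425 and 0.0416), and over 17 alternatives each the ranges were 0.0425 to 0.358 and 0.0416 to 0.596. Mapkapk2, the kinase that phosphorylates tristetraprolin, had 2690 and 3813 bp after 30 min, against 697 and 2616 bp in NR cells (1.01 ± 0.47, adjusted p = 0.688). Its log2 change was 0.29 without the first NR library and 1.73 without the second.

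Genes whose mRNAs are known targets had the highest medians of the 5 lists, 0.78 after 30 min and 0.62 after 2 h, with 19 of 23 tested and none past the threshold. The choice of these lists was made with earlier results of these data known, so their medians are a description. Irf4, a transcription factor whose mRNA Regnase-1 degrades, had 11442 and 23114 bp after 30 min, against 3513 and 2772 bp in NR cells (2.19 ± 0.37, adjusted p = 0.15). It passed among genes with a peak in all 6 libraries (adjusted p = 0.0195, in a range of 0.0195 to 0.502 over 17 alternatives). Il3 had 4683 and 4995 bp after 2 h and no peak in NR cells, and its fitted change of 5.15 ± 0.82 (adjusted p = 0.0946) depends on the pseudocount. Its adjusted p ranged between 0.00903 and 0.596 over 16 alternatives and passed in 5 of them.

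Nfkbid, a Regnase and Roquin target that encodes an atypical inhibitor of NF-kB, showed the same split between measures as Zc3h12d. By position it had 13429 and 15087 bp after 30 min and 13547 and 13078 bp after 2 h, against 2127 and 2543 bp in NR cells (log2 change for 30 min 2.39 ± 0.30, adjusted p = 0.0665). By assignment it is listed at 0 bp in all 4 restimulated libraries, with fitted changes of -4.76 ± 0.67 after 30 min (adjusted p = 0.0915) and -5.08 ± 0.67 after 2 h (adjusted p = 0.067). With values of 0 these depend on the pseudocount and are no bound. The assigned value passed the test in 2 of 14 alternatives after 30 min, in a range of 0.0196 to 0.34, and in 6 of 14 after 2 h, in a range of 0.00986 to 0.319.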

How the data were processed

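Polymerase II ChIP-seq was read from 6 libraries (3 groups of 2). The 3 H3K36me3 libraries and 1 input library were not analysed here. Per the labels' protocols, cells were fixed for 10 min in 1% formaldehyde and libraries were size-selected at 360 to 600 bp. The submitters' processing notes name MACS2 2.1.0, BWA 0.7.13, Picard 1.119 and the build mm10, without their roles. How peaks were assigned to genes is not given in the sources used. Each library has a list of all summits and a table of promoter peaks within 1000 bp of a start, so peaks were called per library. The deposited tables give each peak's signal (pileup, coverage at the summit), its p-value and q-value as −log10 and its fold enrichment as a ratio to local background, per the file headers. The authors' pileups are whole numbers in replicate 1 libraries and mostly not in replicate 2, so the replicate 2 values had been scaled. Those scores described or filtered peaks within a list. Apart from the median pileups, they were not compared between lists.

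Called bp per gene were summed, 9908 of 10419 genes (those called in 2 or more libraries) were kept, and log2(bp + 100) was centred on the median of the 7410 genes with a peak in all 6 libraries. Each measure was fitted with limma 3.58.1 in R 4.3.3 (lmFit, eBayes with trend; group as the only term, all 6 libraries), two-sided, and a change passed at a Benjamini-Hochberg adjusted p under 0.05. Summits inside each span were tested as log2(n + 1), centred on the mean. Spans and promoter sequences are from RefSeq (GRCm38.p6): 10412 of 10419 deposited gene IDs were found there, and 96.8% of those had a start or end within 1000 bp. All 7 members are named, with up to 3 genes of largest change per list. The members and lists were chosen with earlier results of these data known, and the fits by position beyond the first were chosen after seeing the data. Alternatives changed the pseudocount, filters, centring, peak threshold, assignment, the libraries in the fit and the replicate block.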

Additional observations from a re-analysis of the deposited data

How the results depend on the processing

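Counts of genes past the threshold moved with the processing, and the cause was not tested except where fewer genes or libraries entered by construction. By assignment, the count for 30 min against NR (24) was 40 with a pseudocount of 1000 bp, 53 among genes with a peak in all 6 libraries, 14 by overlap with the span and 7 with only the 4 libraries compared. At 2 h against NR (43: 37 longer, 6 shorter) it was 112, 116, 24 and 176 in the same settings, and 79 (59 longer, 20 shorter) after quantile normalisation and 36 (35 longer, 1 shorter) with no centring. Between 2 h and 30 min (0) it was 8 with a pseudocount of 1000 bp, 8 with a peak in all 6 libraries and 1 after quantile normalisation. Leaving out 1 library at a time gave 4 (without NR replicate 1) to 227 for 30 min, 4 to 186 for 2 h and 0 to 206 for 2 h against 30 min, the highest each time without 30 min replicate 2, where 175 of the 227 were shorter. By position, 30 min against NR (34) was 18 with no centring, 2 h against NR (44, all longer) was 175 (153 longer, 22 shorter) and 2 h against 30 min (0) was 1 after quantile normalisation. Leaving out 1 library gave 3 to 349, 2 to 237 and 0 to 269, the highest each time without 30 min replicate 2, where 263 of the 349 were shorter. A group left with 1 library is assumed to vary like the others.

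Summit counts for 30 min against NR (0) were 1 with a pseudocount of 0.5, 64 with −log10 q of at least 5, 4 with 1000 bp either side and 200 with no centring. At 2 h against NR (7, all higher) they were 2 with no filter, 1 with lists of equal length, 96 with −log10 q of at least 5, 13 with 1000 bp either side, 318 (236 higher, 82 lower) with no centring and 27 with the replicate block. Between 2 h and 30 min (0) they were 21 with −log10 q of at least 5 and 236 with no centring. Leaving out 1 library gave 0 to 117, 0 to 306 and 0 to 41.

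Among members, directions by assignment turned at Zfp36 for 30 min (0.49 by overlap, 1.06 by full width, -5.53 to 0.98 leaving out 1 library) and for 2 h against 30 min (-0.33, -0.41, -0.31 to 6.21). They turned at Zc3h12d for 30 min (0.29, 0.30, -3.05 to 0.49) and 2 h (0.25, 0.27). With no centring they turned at Rc3h2 (0.02 at 30 min, 0.40 at 2 h), Zfp36l1 (0.31 at 2 h) and Rc3h1 (0.05 for 2 h against 30 min). Leaving out 1 library turned Zfp36l2 (-0.26 to 1.17) and Rc3h1 (-0.53 to 0.01) at 30 min, Zfp36l1 at 2 h (-0.34 to 0.01), and Zc3h12a (-0.09 to 0.99) and Rc3h2 (-0.06 to 0.20) for 2 h against 30 min. By position, Zc3h12d turned after quantile normalisation at 30 min (-0.25), 2 h (-0.17) and 2 h against 30 min (0.08), in the last also with no centring (0.31) and leaving out 1 library (-0.21 to 0.17). Nfkbid turned by position at 30 min (1.76 by overlap, 2.39 by full width) and 2 h (1.44, 1.97). Over all the alternatives fitted by assignment, by position and for summits, the single member past the threshold was Zc3h12d, by assignment, as given with its values.

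Replicate numbers are shared between groups, but the labels do not say that they pair libraries, and 2 pairs are too few to decide it. Same-numbered libraries deviated together (r = 0.258 for 30 min and NR, 0.19 for 2 h and NR and 0.31 for 2 h and 30 min, over 7410 genes). With the replicate block the counts by assignment were 19, 33 and 0 and by position 37, 51 and 0, and none of the 7 members passed by either. Ranking by the highest peak per gene moved no percentile of the members by more than 6.0. A motif window around the strongest summit was not run because it needs a genome, which was not used here. Depth is unknown. The first NR and first 30 min libraries had the lowest median pileups, though replicate 2 pileups had been scaled. DNA not called in those libraries may be undetected rather than free of polymerase.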
